A study of Mus musculus with 24 samples.

Results

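Stage III eosinophils of mice given interleukin-33 (IL-33) were set against stage II eosinophils of untreated mice, 2 bone marrow populations that were both dividing. The first group held 3 libraries of stage III cells from wild type C57BL6 mice injected with 400 ng of IL-33 into the peritoneum on each of 7 days. The second held 3 libraries of stage II cells from wild type C57BL6 mice in steady state, which received no IL-33. These were 6 of the 24 libraries of a series in which marrow eosinophils of both conditions were sorted by flow cytometry into 4 stages of maturation, I to IV. Every library was made from cells pooled from 3 mice, so the spread between libraries is that between pools and not between animals. Before the sort, magnetic beads took out cells with CD45R, NK1.1, CD90.2 or Ly6G on their surface. The gates for the stages used CD117, CD55, CD200R3, Pir-A/B, Siglec-F, F4/80 and CD29. The groups were chosen by measured values, namely the levels of cell cycle transcripts, which stay high up to stage III under IL-33 and up to stage II in steady state. Those levels are therefore given as a description with no test. The comparison changes the treatment and the sorted stage at once, and an effect of IL-33 and an effect of the stage cannot be told apart from it alone.

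Eosinophils form in the bone marrow from progenitors that express GATA transcription factors and the receptor for IL-5, and they fill their specific granules with cationic proteins while they still divide. IL-33 is a cytokine released by damaged cells. Its receptor chain ST2, encoded by Il1rl1, is carried by mast cells, basophils, group 2 innate lymphoid cells and eosinophils, and IL-33 raises eosinophil numbers in large part through IL-5 made by innate lymphoid cells. IL-3, IL-5 and granulocyte-macrophage colony-stimulating factor (GM-CSF) share the receptor beta chain and signal through the transcription factor STAT5.

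Messenger RNA was read as full-length cDNA and counted per gene. The IL-33 stage III libraries held 11080896 to 14909453 gene counts with 13104 to 13526 genes detected, and the steady state stage II libraries 8462786 to 11188883 counts with 11897 to 12207 genes. Reads assigned to no gene made up 9.19% to 15.1% of the counted reads in IL-33 stage III and 17.8% to 20.6% in steady state stage II, so this share moved with the groups and its part in the results was not tested. The third steady state stage II library stood apart on the early stress genes Jun and Atf3 and on Ddx3y, a gene of the Y chromosome, as did the libraries numbered 3 of the other steady state stages. Over those 4 libraries Jun had 3331 to 5018 CPM, Atf3 165 to 1063 CPM and Ddx3y 174 to 384 CPM, and whether they share mice or a preparation is not in the labels used here. Jun was at 4769 CPM (counts per 1000000 gene counts) in the third steady state stage II library, against 1074 to 2142 CPM in the other 5 libraries compared. Atf3 was at 663 CPM in it against 4.20 to 52.0 CPM in those 5, and Ddx3y at 223 CPM against 45.0 to 79.3 CPM. Levels below are CPM with library sizes adjusted by trimmed means of M values, with the libraries of a group in the order 1, 2, 3. They are not divided by gene length, so levels are compared between groups and not between genes. Unless stated otherwise, IL-33 libraries below are those of stage III and steady state libraries those of stage II.

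The cell cycle lists had like but not equal sums in both groups. The summed level of 30 genes of DNA replication and S phase was 4692 ± 433 CPM in IL-33 stage III and 5478 ± 71.6 CPM in steady state stage II (SD, n = 3 each). The groups did not overlap, with 4320 to 5167 CPM in IL-33 stage III and 5436 to 5561 CPM in steady state stage II, so the IL-33 group was the lower one. The 30 genes of G2 and mitosis summed to 6536 ± 615 CPM in IL-33 stage III and 5698 ± 1500 CPM in steady state stage II. Here the groups overlapped, because the third steady state library reached 7430 CPM while the other 2 lay at 4825 and 4839 CPM. Neighbouring groups were further off. The S phase sum averaged 6301 CPM in IL-33 stage II and 840 CPM in steady state stage III, and the G2 and mitosis sum 7386 and 913 CPM. The 23 genes of G1 cyclins and inhibitors of cyclin-dependent kinases summed to 2159 ± 49.2 CPM in IL-33 stage III and 2259 ± 166 CPM in steady state stage II.

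**Figure D1:**
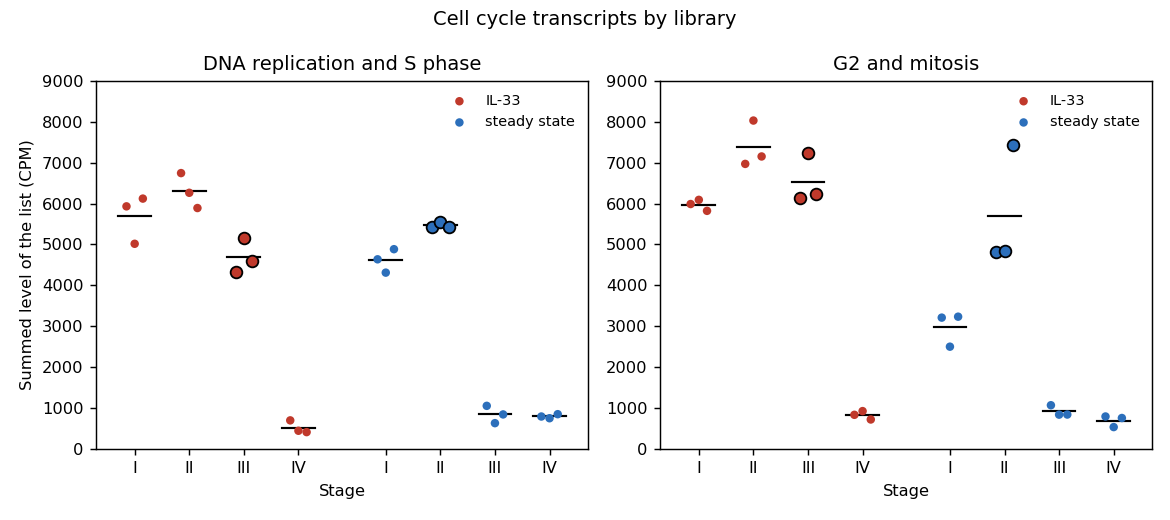
Summed level (CPM) of the genes of DNA replication and S phase (left) and of G2 and mitosis (right) in each of the 24 libraries, by stage, with IL-33 groups left of steady state groups. Points are libraries, bars are group means, and the 6 libraries compared here are outlined. Both outlined groups lie far above steady state stage III, which averaged 840 and 913 CPM.

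Many single cell cycle genes overlapped between the groups, but not all. Of the 30 genes of DNA replication and S phase 11 did not overlap, and of the 30 of G2 and mitosis 6. Over all genes tested the share without overlap was 30.5%. The proliferation antigen gene Mki67 had 405, 334 and 382 CPM in IL-33 stage III, against 315, 246 and 516 CPM in steady state stage II. The DNA topoisomerase gene Top2a had 559.9, 633 and 588 CPM in IL-33 stage III, against 361, 419 and 630.1 CPM in steady state stage II, where the third steady state library lay within the IL-33 range and the other 2 below it. Rrm2, a subunit gene of ribonucleotide reductase, had 654, 716 and 598 CPM in IL-33 stage III, against 634, 665 and 839.9 CPM in steady state stage II. The replicative helicase gene Mcm6 had 416, 489.8 and 436.9 CPM in IL-33 stage III and 589, 614 and 481 CPM in steady state stage II, again overlapping. A few genes of G1 control stood apart, and were picked out after their values were seen. Ccnd1, the gene of cyclin D1, averaged 0.0267 ± 0.0463 CPM in IL-33 stage III and 2.29 ± 1.81 CPM in steady state stage II (SD, n = 3 each). Cdkn2a, which encodes the cell cycle inhibitor p16, averaged 1.65 ± 1.09 CPM in IL-33 stage III and 0.0735 ± 0.127 CPM in steady state stage II.

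At an adjusted p under 0.05 (edgeR quasi-likelihood test, Benjamini-Hochberg), 1065 of 12743 genes tested (8.36%) differed between IL-33 stage III and steady state stage II. Of them 638 (5.01%) were higher in IL-33 stage III and 427 (3.35%) lower, the shares against which the counts of list members below stand. In 3889 genes (30.5%) the libraries of IL-33 stage III and of steady state stage II did not overlap. The calls rest on all 3 IL-33 stage III libraries: without library 1, 2 or 3 of that group 602, 543 and 630 genes were called. The split between higher and lower moved with the method, from 59.9% higher to 45.3% with DESeq2 (687 higher, 828 lower), 42.6% in a fit of the 6 libraries alone (333 higher), 50% with limma-voom (616 and 616) and 50% with relative log expression factors (508 and 507). The median over all genes was 0.06 on the log2 scale, and -0.05 with relative log expression factors. Below, a gene is said to have risen or fallen only where it passed the test.

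The genes with the greatest rise were nearly silent in steady state stage II. Hc (chromosome 2, 34983331 to 35061438, GRCm38), which encodes complement component C5, had 59.8, 64.3 and 52.0 CPM in the 3 IL-33 stage III libraries and no count in any steady state stage II library. It was at least 595-fold higher against a floor of 3 counts over the group without counts (edgeR adjusted p = 4.23e-08). C7, another gene of the terminal complement pathway (chromosome 15, 4988762 to 5063740), had 36.7, 39.1 and 19.3 CPM in IL-33 stage III and no count in steady state stage II, and was at least 323-fold higher (edgeR adjusted p = 0.000842). Both complement genes were thus counted in each IL-33 stage III library and in no steady state stage II library. Bex1, an X-linked gene named for its expression in brain (chromosome X, 136213972 to 136215513), was at least 339-fold higher (edgeR adjusted p = 1.93e-05). Alox8, a lipoxygenase gene, was at least 237-fold higher, Plxdc2, which encodes a membrane protein with a plexin domain, at least 214-fold, and Nov, which encodes a secreted matricellular protein, at least 215-fold. The potassium channel gene Kcnk5 had 1 to 3 counts over the steady state libraries and was 424-fold (95% counting interval 117 to 3503) higher. Floors and intervals cover counting error only.

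Further rises were seen in genes that steady state stage II expressed at a low level. Crhbp (chromosome 13, 95431371 to 95444924), which encodes a secreted binding protein for corticotropin-releasing hormone, had 236, 304 and 201 CPM in IL-33 stage III, against 4.63, 4.07 and 0.264 CPM in steady state stage II. It rose 83.9-fold (log2 fold change 6.39, SE 0.61, edgeR adjusted p = 1.16e-06), and the groups were far apart. Lipg, the gene of endothelial lipase, had 621, 635 and 499 CPM in IL-33 stage III, against 25.8, 3.46 and 0.528 CPM in steady state stage II. The steady state libraries differed widely among themselves, and all lay below the IL-33 libraries (log2 fold change 5.90, SE 1.08, edgeR adjusted p = 0.00113). Gpr34, a receptor gene for lysophosphatidylserine, had 59.4, 58.0 and 55.7 CPM in IL-33 stage III, against 0.551, 0.102 and 2.38 CPM in steady state stage II (log2 fold change 5.77, SE 0.77, edgeR adjusted p = 3.68e-05). Tmem44, a membrane protein gene, rose 65.2-fold. Akr1c18, an aldo-keto reductase gene whose enzyme inactivates progesterone, had 136, 184 and 48.4 CPM in IL-33 stage III, against 0.110, 2.85 and 0 CPM in steady state stage II (log2 fold change 6.96, SE 1.39, edgeR adjusted p = 0.00249). The limma-voom fit did not call it (adjusted p = 0.0992).

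Among the genes with the greatest fall were Fcnb, Lrg1 and Wfdc21, which are known from neutrophils. The summed level of the neutrophil markers, given below, was lower in the same IL-33 libraries, and its part in these falls was not tested. Prom1 (chromosome 5, 43993620 to 44102032), which encodes prominin, a membrane glycoprotein of progenitors and epithelia, had no count in IL-33 stage III and 85.7, 169 and 64.3 CPM in steady state stage II, at least 1364-fold lower (edgeR adjusted p = 0.00236). Fcnb (chromosome 2, 28076378 to 28084885), the gene of ficolin B of granulocyte granules, had 1.199, 2.15 and 1.44 CPM in IL-33 stage III, against 1054, 1468 and 566 CPM in steady state stage II (log2 fold change -9.31, SE 1.23, edgeR adjusted p = 3.48e-05). Lrg1, the gene of a leucine-rich glycoprotein of neutrophil granules, had 0.514, 0.0670 and 0.241 CPM in IL-33 stage III, against 235, 154 and 146 CPM in steady state stage II (log2 fold change -9.36, SE 1.67, edgeR adjusted p = 0.000944). All 3 steady state stage II libraries were high for these 3 genes and no IL-33 stage III library came near them. The chitinase gene Chit1 was lower by at least 295-fold. Orm1, an acute phase protein gene, was 593-fold (95% counting interval 203 to 2881) lower, Gpr84, a receptor gene for medium-chain fatty acids, 1185-fold (95% counting interval 212 to 46860) and Mrgpra2b, a Mas-related receptor gene with near-identical copies, 388-fold (95% counting interval 132 to 1886). Chil1, which encodes a chitinase-like protein, fell 358-fold and Wfdc21, a neutrophil gene, 206-fold. Cldn1, a tight junction gene, and Tnfsf13b, which encodes the B cell factor BAFF, were lower as well, at adjusted p = 0.0209 and 0.0132. The call of Cldn1 was lost without IL-33 stage III library 2 or 3 and that of Tnfsf13b without library 1 or 2, with an adjusted p of up to 0.104 and 0.0736.

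**Figure D2:**
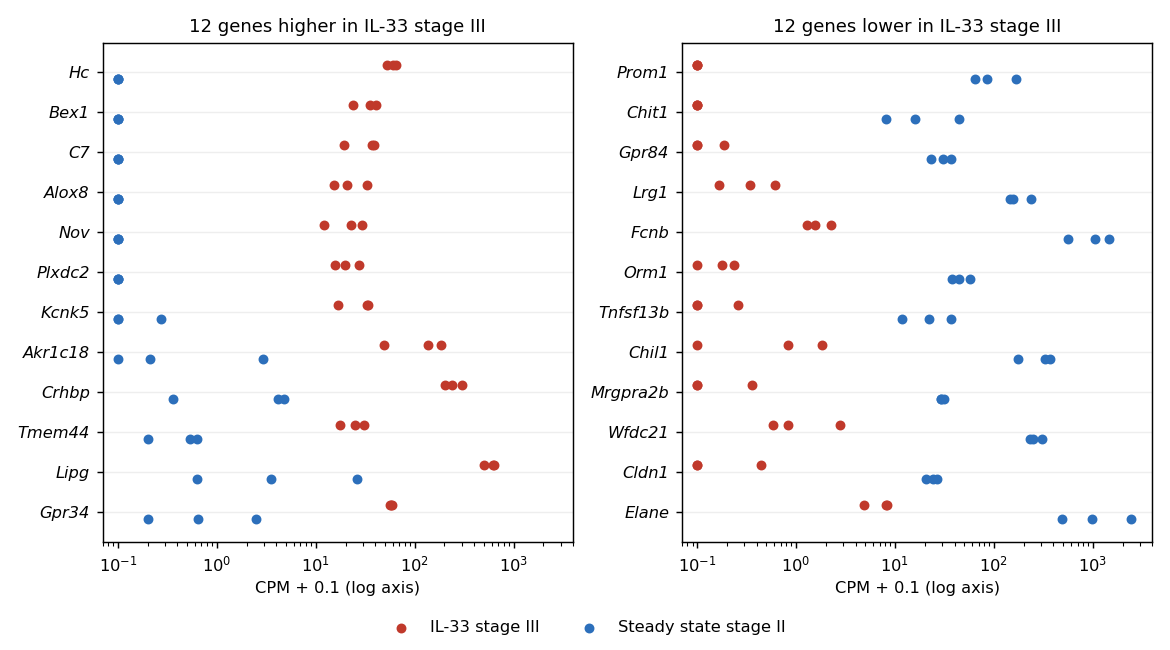
Level (CPM + 0.1, log axis) of the 12 genes with the greatest rise (left) and the 12 with the greatest fall (right) that passed the test, did not overlap between groups and averaged 20 CPM or more in 1 group. Each point is a library, with IL-33 stage III in red above steady state stage II in blue, and points at 0.1 have no counts. In the left panel 6 genes had no steady state counts.

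Genes of the eosinophil granule did not pass the test. Epx (chromosome 11, 87864000 to 87875536), the gene of eosinophil peroxidase, had 11550, 15410 and 14370 CPM in IL-33 stage III, against 14140, 12760 and 9693 CPM in steady state stage II, and the groups overlapped (log2 fold change 0.18, SE 0.26, edgeR adjusted p = 0.738). Prg2, the gene of major basic protein, had 10640, 11300 and 11570 CPM in IL-33 stage III and 17270, 13820 and 11830 CPM in steady state stage II, with every IL-33 library below every steady state library (log2 fold change -0.36, SE 0.27, edgeR adjusted p = 0.468). Prg3, its homologue, overlapped between groups (log2 fold change -0.36, SE 0.34, edgeR adjusted p = 0.569). Both groups thus carried these defining eosinophil transcripts at high levels. In bulk libraries fewer cells of a type and less RNA per cell cannot be told apart. Of 10 Ear ribonuclease genes in the files 4 had no counts in the 6 libraries and 5 were tested, with 0 called, by DESeq2 and limma-voom as well. Ear1 averaged 2658 ± 328 CPM in IL-33 stage III and 2740 ± 702 CPM in steady state stage II (SD, n = 3 each), though reads may be split between Ear copies. Il5ra, which encodes the specific chain of the IL-5 receptor, had 146, 102 and 213 CPM in IL-33 stage III, against 163, 119 and 159 CPM in steady state stage II (log2 fold change 0.06, SE 0.31, edgeR adjusted p = 0.932), and these overlapped. Alox15, a lipoxygenase gene of eosinophils, had 2874, 2956 and 3171 CPM in IL-33 stage III and 1960, 1638 and 3112 CPM in steady state stage II (log2 fold change 0.42, SE 0.28, edgeR adjusted p = 0.391).

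Transcription factors of the lineage went both ways, 2 of 18 higher and 4 lower (5.01% and 3.35% of all genes tested), with a median log2 fold change of 0.40 against 0.06 over all genes tested. Gata2 (chromosome 6, 88193891 to 88207032), which encodes a GATA factor of progenitors, mast cells and basophils, had 675, 792 and 644 CPM in IL-33 stage III, against 56.1, 66.7 and 17.4 CPM in steady state stage II. The groups were far apart, and Gata2 rose 15.1-fold (log2 fold change 3.91, SE 0.38, edgeR adjusted p = 6.6e-07). Gata1, the factor that specifies eosinophils, had 229, 254 and 204 CPM in IL-33 stage III, against 171, 144 and 99.1 CPM in steady state stage II and did not pass (log2 fold change 0.73, SE 0.30, edgeR adjusted p = 0.139). Even so, no IL-33 stage III library was as low as any steady state stage II library. Cebpe, a factor of granule formation, had 714, 529 and 534 CPM in IL-33 stage III and 457.3, 356 and 250.2 CPM in steady state stage II (log2 fold change 0.74, SE 0.29, edgeR adjusted p = 0.117). Runx1, a core factor of blood formation, was the second gene to rise (log2 fold change 0.93, SE 0.23, edgeR adjusted p = 0.0122), a call lost in the 6 libraries alone and without IL-33 library 1 or 3 or steady state library 2 (adjusted p up to 0.0638). Cebpa, a factor of early granulocyte commitment, fell 8.56-fold (log2 fold change -3.10, SE 0.69, edgeR adjusted p = 0.00564), and its relative Cebpd 2.95-fold (log2 fold change -1.56, SE 0.29, edgeR adjusted p = 0.00129). Gfi1, a repressor gene of granulocytes, fell 2.91-fold and was not called without IL-33 library 2 (adjusted p = 0.0513). The monocyte factor gene Irf8 fell 18.7-fold (log2 fold change -4.22, SE 0.58, edgeR adjusted p = 5.29e-05). Neutrophil and monocyte markers were lower in the same IL-33 libraries, as given below, and their part in these 4 falls was not tested. Gfi1b, the related repressor gene of erythroid and megakaryocyte cells, counted here among the stem and progenitor genes, rose 3.81-fold (log2 fold change 1.93, SE 0.37, edgeR adjusted p = 0.00179).

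Cytokine receptor genes divided evenly, with 6 of 24 higher, 6 lower and a median of -0.25 on the log2 scale. All 4 genes of the IL-3, IL-5 and GM-CSF receptor family that passed had risen. Csf2rb (chromosome 15, 78325752 to 78353847), the common beta chain, had 304, 399 and 402 CPM in IL-33 stage III, against 185, 185 and 105 CPM in steady state stage II (log2 fold change 1.22, SE 0.27, edgeR adjusted p = 0.00579). Its neighbour Csf2rb2 (chromosome 15, 78282507 to 78305721), an IL-3 receptor beta chain of the mouse, had 90.9, 95.1 and 83.1 CPM in IL-33 stage III, against 18.9, 29.5 and 17.6 CPM in steady state stage II. The groups did not overlap, though reads may be split between these near-identical genes (log2 fold change 2.03, SE 0.33, edgeR adjusted p = 0.000311). The alpha chain genes Il3ra of the IL-3 receptor and Csf2ra of the GM-CSF receptor rose 2.83-fold (edgeR adjusted p = 0.0229) and 1.76-fold (edgeR adjusted p = 0.0215). The call of Il3ra was lost in the 6 libraries alone and without IL-33 library 1 or 2 or steady state library 3 (adjusted p up to 0.102). That of Csf2ra was lost with library totals, in the 6 libraries alone and without IL-33 library 1 or 3 or steady state library 1 or 3 (adjusted p up to 0.103). Il1rl1 (chromosome 1, 40429570 to 40465415), the gene of the IL-33 receptor chain ST2, had 79.1, 80.8 and 135 CPM in IL-33 stage III, against 18.8, 37.1 and 33.5 CPM in steady state stage II. It rose 3.30-fold (log2 fold change 1.72, SE 0.33, edgeR adjusted p = 0.00152), with the third IL-33 library the highest. Crlf2, a receptor chain for thymic stromal lymphopoietin, rose 3.20-fold (log2 fold change 1.68, SE 0.36, edgeR adjusted p = 0.00463).

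The 6 receptor genes that fell were those of other cytokines. Il17rb (chromosome 14, 29996135 to 30008896), a receptor chain for IL-25, had 13.96, 7.57 and 16.9 CPM in IL-33 stage III, against 113, 122 and 61.3 CPM in steady state stage II, without overlap (log2 fold change -2.95, SE 0.37, edgeR adjusted p = 2.25e-05). Csf3r, the receptor gene of granulocyte colony-stimulating factor, had 4.62, 1.34 and 1.04 CPM in IL-33 stage III, against 156, 224 and 165 CPM in steady state stage II, a fall of 78.3-fold (log2 fold change -6.29, SE 1.13, edgeR adjusted p = 0.000993). Il6ra, a receptor gene for IL-6, fell 12.3-fold and was not called without IL-33 library 2 (adjusted p = 0.0527). Il13ra1, a receptor gene for IL-13, fell 8.20-fold, a call lost without the 4 steady state libraries numbered 3, steady state library 3 or any 1 IL-33 library (adjusted p up to 0.13). The tumour necrosis factor receptor genes fell as well, Tnfrsf1a 4.42-fold (log2 fold change -2.15, SE 0.38, edgeR adjusted p = 0.000811) and Tnfrsf1b 3.77-fold. Csf3r is also counted among the neutrophil markers, whose summed level was 3409 to 4743 CPM in IL-33 stage III and 19860 to 32190 CPM in steady state stage II, and the part of neutrophil RNA in these falls was not tested.

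Feedback genes of STAT5 and cytokine signals rose, 5 of 15, while Gfi1 of this list fell, and the list median was 0.74 on the log2 scale. Cish (chromosome 9, 107296026 to 107302784), which encodes an inhibitor of STAT5 signalling that STAT5 itself switches on, had 119, 78.1 and 61.4 CPM in IL-33 stage III, against 0, 1.63 and 19.02 CPM in steady state stage II. All IL-33 stage III libraries lay above the steady state stage II libraries, which ranged from no counts to 19.02 CPM. Cish rose 12.3-fold (log2 fold change 3.62, SE 0.79, edgeR adjusted p = 0.00488), but was not called in a fit of the 6 libraries alone (adjusted p = 0.14). Socs2, a related suppressor gene, had 43.5, 41.8 and 28.4 CPM in IL-33 stage III, against 2.21, 0 and 0.0881 CPM in steady state stage II (log2 fold change 5.68, SE 0.93, edgeR adjusted p = 0.000376). Its relative Socs1 had 99.2, 50.3 and 46.8 CPM in IL-33 stage III, against 14.5, 6.10 and 10.0 CPM in steady state stage II (log2 fold change 2.68, SE 0.45, edgeR adjusted p = 0.000551). Both were higher in every IL-33 library. The survival kinase gene Pim2 (chromosome X, 7878262 to 7883432) had 99.8, 129 and 89.5 CPM in IL-33 stage III, against 23.9, 30.8 and 24.6 CPM in steady state stage II (log2 fold change 2.00, SE 0.36, edgeR adjusted p = 0.000944). Pim1 rose 2.68-fold (edgeR adjusted p = 0.0213), a call lost in the 6 libraries alone and without IL-33 library 1 or 3 or steady state library 1 or 2 (adjusted p up to 0.0857). Of 16 tested genes of the Bcl2 family 4 rose and 0 fell. Bcl2a1a, a survival gene, had 41.4, 57.8 and 27.0 CPM in IL-33 stage III, against 0, 2.24 and 2.38 CPM in steady state stage II (log2 fold change 4.74, SE 0.86, edgeR adjusted p = 0.00108), and its copy Bcl2a1b rose 14.2-fold, though reads may be split between copies. Bax and Bad, which promote cell death, rose 1.76-fold and 1.70-fold at adjusted p = 0.0466 and 0.0392. The call of Bax was lost with relative log expression factors, with no filter, with a filter of 5 CPM in 3 libraries, in the 6 libraries alone, with the replicate block, with DESeq2 and without the 4 steady state libraries numbered 3, any 1 IL-33 library or steady state library 2 or 3 (adjusted p up to 0.171). That of Bad was lost with relative log expression factors, with no filter, in the 6 libraries alone, with limma-voom and without the 4 steady state libraries numbered 3, any 1 IL-33 library or any 1 steady state library (adjusted p up to 0.131).

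The promoters of 4 genes of these families that rose are shown from RefSeq (GRCm38.p6), as the 300 bases from 250 before to 50 after the start site, 5′ to 3′ on the gene's strand. They were picked after the values were seen, because each holds the STAT motif TTCNNNGAA or the GATA motif AGATAA, searched on both strands. Capitals mark the matches, and TTATCT is the GATA motif read on the other strand. Cish (chr9:107296409-107296708, plus strand) holds 2 STAT motifs, which begin at the start site and 11 bases after it. Csf2rb2 (chr15:78305672-78305971, minus strand) holds 1 STAT motif, 15 bases before the start site. Ms4a2 (chr19:11623670-11623969, minus strand), a gene described with the mast cell markers below, holds 3 GATA motifs, and Il1rl1 has 2 promoters (chr1:40429320-40429619 and chr1:40439379-40439678, plus strand) with 1 GATA motif each.
Cish: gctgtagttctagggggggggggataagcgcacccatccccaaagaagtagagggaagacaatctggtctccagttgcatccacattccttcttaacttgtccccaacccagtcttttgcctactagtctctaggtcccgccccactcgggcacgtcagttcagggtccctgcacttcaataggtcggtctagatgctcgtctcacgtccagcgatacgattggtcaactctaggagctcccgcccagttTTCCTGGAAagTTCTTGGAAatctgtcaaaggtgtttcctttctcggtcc
Csf2rb2: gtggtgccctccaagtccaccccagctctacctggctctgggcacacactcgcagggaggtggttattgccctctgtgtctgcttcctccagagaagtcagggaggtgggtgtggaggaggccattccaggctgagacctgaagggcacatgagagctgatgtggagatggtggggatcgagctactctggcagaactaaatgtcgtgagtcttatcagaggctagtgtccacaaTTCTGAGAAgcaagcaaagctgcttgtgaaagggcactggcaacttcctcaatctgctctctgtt
Ms4a2: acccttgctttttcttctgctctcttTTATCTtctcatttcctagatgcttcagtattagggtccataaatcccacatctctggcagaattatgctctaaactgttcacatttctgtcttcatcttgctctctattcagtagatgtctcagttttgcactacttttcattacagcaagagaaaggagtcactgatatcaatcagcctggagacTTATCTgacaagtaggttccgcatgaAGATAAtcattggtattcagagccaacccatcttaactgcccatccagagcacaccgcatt
Il1rl1 promoter 1: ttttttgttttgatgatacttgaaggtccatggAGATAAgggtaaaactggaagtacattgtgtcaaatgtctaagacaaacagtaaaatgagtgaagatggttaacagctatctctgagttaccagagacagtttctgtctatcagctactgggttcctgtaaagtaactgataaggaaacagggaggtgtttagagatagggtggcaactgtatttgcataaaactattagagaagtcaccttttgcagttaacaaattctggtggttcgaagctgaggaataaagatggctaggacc
Il1rl1 promoter 2: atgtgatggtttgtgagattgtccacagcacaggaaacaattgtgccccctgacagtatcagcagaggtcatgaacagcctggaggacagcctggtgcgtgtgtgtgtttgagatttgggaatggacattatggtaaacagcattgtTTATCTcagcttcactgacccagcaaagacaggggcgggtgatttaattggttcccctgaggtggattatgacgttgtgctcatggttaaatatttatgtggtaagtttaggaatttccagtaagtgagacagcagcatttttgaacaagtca

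Such motifs are common in promoters. The STAT motif stood in 7.72% of the 479 genes called higher that have a promoter in the RefSeq table, 10.8% of the 343 called lower, 8.4% of the 10049 tested genes matched and 9.55% of all 27025 genes in the table. The GATA motif stood in 10.9%, 11.1%, 8.28% and 12.7% of the same sets. Among the STAT5 and cytokine feedback genes, 12 of 15 had a promoter and 2 held the STAT motif, Cish and Socs3. A motif describes the sequence and shows no binding.

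Of 17 tested steroid, heme and iron genes 2 rose and 3 fell, with a list median of -0.095. Cyp11a1 (chromosome 9, 58006411 to 58027023), the gene of the enzyme that makes pregnenolone from cholesterol, had 490.3, 575 and 485 CPM in IL-33 stage III, against 29.7, 35.9 and 4.67 CPM in steady state stage II. No steady state library came near the IL-33 libraries, and Cyp11a1 rose 22.1-fold (log2 fold change 4.47, SE 0.50, edgeR adjusted p = 5.04e-06). Of 20 genes of cholesterol synthesis 5 rose and 0 fell, with a list median of 0.85. Srebf2, which encodes the transcription factor that drives the pathway, had 158, 149 and 229.9 CPM in IL-33 stage III, against 48.1, 74.8 and 47.0 CPM in steady state stage II (log2 fold change 1.66, SE 0.37, edgeR adjusted p = 0.00642). Mvd of the mevalonate pathway rose 2.39-fold, a call lost in the 6 libraries alone, and without the 4 steady state libraries numbered 3, IL-33 library 2 or 3 or steady state library 2 or 3 (adjusted p up to 0.104). Pmvk and Fdps of the same pathway rose 2.73-fold and 2.33-fold. Pmvk lost its call in the 6 libraries alone and without steady state stage II library 2 (adjusted p up to 0.0754), and Fdps without steady state library 3 or IL-33 library 2 (adjusted p up to 0.0993).

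Of 14 tested eicosanoid synthesis genes 3 rose and 0 fell. Alox5, the gene of the lipoxygenase that starts leukotriene synthesis, had 950.2, 1172 and 999 CPM in IL-33 stage III, against 394, 379 and 471 CPM in steady state stage II. Every IL-33 stage III library lay above every steady state stage II library (log2 fold change 1.33, SE 0.26, edgeR adjusted p = 0.00179). Its partner gene Alox5ap rose 1.58-fold (edgeR adjusted p = 0.0309), a call lost with relative log expression factors, in the 6 libraries alone and without any 1 IL-33 library or steady state library 1 or 2 (adjusted p up to 0.101). The thromboxane synthase gene Tbxas1 rose 1.70-fold (edgeR adjusted p = 0.00802) and was not called in the 6 libraries alone (adjusted p = 0.0817).

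Of 22 tested oxidative defence genes 3 rose and 2 fell, against 5.01% and 3.35% of all genes. Nqo1, a quinone reductase gene, had 25.8, 30.4 and 21.9 CPM in IL-33 stage III, against 2.76, 3.05 and 4.31 CPM in steady state stage II (log2 fold change 2.94, SE 0.37, edgeR adjusted p = 2.31e-05). Cat, the gene of catalase, had 369.8, 332 and 329 CPM in IL-33 stage III, against 185, 139 and 177 CPM in steady state stage II (log2 fold change 1.04, SE 0.24, edgeR adjusted p = 0.00768). Txnrd1 of the thioredoxin system rose 1.78-fold, a call lost with either other scaling, with a filter of 5 CPM in 3 libraries, in the 6 libraries alone, and without the 4 steady state libraries numbered 3, any 1 IL-33 library or steady state library 2 or 3 (adjusted p up to 0.156). One that fell was Nfe2l2 at 1.81-fold (edgeR adjusted p = 0.0103), which encodes the transcription factor NRF2 that is known to switch on Nqo1, a call lost without IL-33 library 2 (adjusted p = 0.0821). The other was the heme oxygenase gene Hmox1 at 2.70-fold (edgeR adjusted p = 0.0355), lost with no filter and without any 1 IL-33 library or steady state library 1 or 2 (adjusted p up to 0.148). The transferrin receptor gene Tfrc had 39.6, 39.7 and 38.4 CPM in IL-33 stage III, against 115, 174 and 136 CPM in steady state stage II (log2 fold change -1.85, SE 0.44, edgeR adjusted p = 0.00951). Of 26 genes of glycolysis and the pentose phosphate pathway 5 rose and 2 fell, with Aldoa 1.73-fold (edgeR adjusted p = 0.0129) higher. The lactate exporter gene Slc16a3 was 2.66-fold higher, and the lactate dehydrogenase gene Ldhb 119-fold lower (log2 fold change -6.89, SE 1.19, edgeR adjusted p = 0.000693). The call of Aldoa was lost without the 4 steady state libraries numbered 3 or IL-33 library 2 (adjusted p up to 0.0598), and without IL-33 library 2 0 of the 26 were called higher. Slc16a3 lost its call with either other scaling, with a filter of 5 CPM in 3 libraries, and without any 1 IL-33 library or steady state library 2 or 3 (adjusted p up to 0.135).

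Of 23 tested chemokine and cytokine ligands 3 rose and 3 fell, and of 17 secreted proteases and inhibitors 3 rose and 4 fell. Ccl6 (chromosome 11, 83587882 to 83593087), a chemokine gene of eosinophils and macrophages, had 2377, 2232 and 2080 CPM in IL-33 stage III, against 206, 374 and 580.3 CPM in steady state stage II (log2 fold change 2.53, SE 0.28, edgeR adjusted p = 3.61e-06). Adam19, a membrane metalloprotease gene, had 147, 88.1 and 127 CPM in IL-33 stage III, against 6.73, 17.8 and 17.3 CPM in steady state stage II (log2 fold change 3.11, SE 0.38, edgeR adjusted p = 1.54e-05). Both were higher in every IL-33 stage III library than in any steady state stage II library. The protease inhibitor gene Timp2 had 339, 290.3 and 325 CPM in IL-33 stage III, against 90.3, 105 and 131 CPM in steady state stage II (log2 fold change 1.55, SE 0.22, edgeR adjusted p = 7.76e-05). The protease gene Adam8 had 491, 439.9 and 521 CPM in IL-33 stage III, against 181, 133 and 285 CPM in steady state stage II (log2 fold change 1.28, SE 0.29, edgeR adjusted p = 0.0064). Of 25 adhesion and migration genes 3 rose and 2 fell, against 5.01% and 3.35% of all genes. Itgb7 (chromosome 15, 102215995 to 102231944), which encodes the integrin beta chain for homing to the gut, had 379, 456.1 and 389.5 CPM in IL-33 stage III, against 69.0, 122 and 178 CPM in steady state stage II (log2 fold change 1.73, SE 0.34, edgeR adjusted p = 0.00208). The integrin chain gene Itga4 fell 2.78-fold (log2 fold change -1.48, SE 0.31, edgeR adjusted p = 0.00404). The cytokine genes Il4 and Il6 rose 1.75-fold and 3.27-fold at adjusted p = 0.0426 and 0.0123, and Il15 fell 4.99-fold (edgeR adjusted p = 0.0052). The call of Il4 was lost with relative log expression factors, with a filter of 5 CPM in 3 libraries, in the 6 libraries alone, with DESeq2 and without the 4 steady state libraries numbered 3, any 1 IL-33 library or steady state library 2 or 3 (adjusted p up to 0.199). That of Il6 was lost in the 6 libraries alone and without IL-33 library 1 or steady state library 1 or 2 (adjusted p up to 0.109).

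Several genes with large or precise rises belong to none of the lists and were picked out after their values were seen. Selenom (chromosome 11, 3514684 to 3517351), a selenoprotein gene of the endoplasmic reticulum, had 356, 315 and 373 CPM in IL-33 stage III, against 38.3, 30.6 and 34.7 CPM in steady state stage II (log2 fold change 3.33, SE 0.27, edgeR adjusted p = 4.23e-08). Ifitm1 (chromosome 7, 140967221 to 140969825), which encodes an interferon-induced membrane protein, had 885, 953 and 701 CPM in IL-33 stage III, against 48.4, 51.5 and 22.4 CPM in steady state stage II (log2 fold change 4.38, SE 0.41, edgeR adjusted p = 4.51e-07). Lmna, the gene of lamin A and C of the nuclear envelope, had 264, 335 and 309.9 CPM in IL-33 stage III, against 15.4, 9.66 and 33.1 CPM in steady state stage II (log2 fold change 3.96, SE 0.79, edgeR adjusted p = 0.00242). In all 3 genes the groups were far apart.

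Of 6 tested primary granule genes, which are expressed in early neutrophil and monocyte precursors, 4 fell and 0 rose, with a list median of -4.72 and a summed level of 308 to 391 CPM in IL-33 stage III and 2490 to 9978 CPM in steady state stage II. Mpo (chromosome 11, 87793581 to 87804413), the myeloperoxidase gene, had 86.5, 92.9 and 69.6 CPM in IL-33 stage III, against 2348, 5202 and 1462 CPM in steady state stage II (log2 fold change -5.18, SE 0.67, edgeR adjusted p = 2.99e-05). Elane, the neutrophil elastase gene, had 8.22, 8.11 and 4.81 CPM in IL-33 stage III, against 979, 2417 and 489.8 CPM in steady state stage II (log2 fold change -7.52, SE 0.77, edgeR adjusted p = 1.27e-06). Prtn3, the proteinase gene next to it, had 12.8, 11.5 and 5.94 CPM in IL-33 stage III, against 304, 819 and 165 CPM in steady state stage II (log2 fold change -5.41, SE 0.52, edgeR adjusted p = 6.16e-07). Within steady state stage II, library 2 was the highest and library 3 the lowest for all 3 genes. All 3 steady state stage II libraries lay far above any IL-33 stage III library. Ctsg, the cathepsin G gene, fell 19.3-fold (log2 fold change -4.27, SE 0.57, edgeR adjusted p = 3.91e-05). Of 13 tested stem and progenitor genes 1 rose and 5 fell, with a median of -2.12. The falls include Kit, the gene of the sort marker CD117, whose levels are given below as a description. Cd34, a surface protein gene of progenitors, had 16.6, 18.1 and 19.8 CPM in IL-33 stage III, against 70.6, 122 and 45.8 CPM in steady state stage II (log2 fold change -2.13, SE 0.41, edgeR adjusted p = 0.00181). Flt3, a receptor gene of multipotent progenitors, averaged 0.0838 ± 0.0857 CPM in IL-33 stage III and 10.4 ± 9.76 CPM in steady state stage II (SD, n = 3 each) and fell (log2 fold change -6.83, SE 1.96, edgeR adjusted p = 0.0315). That call was lost without the 4 steady state libraries numbered 3, any 1 IL-33 library or steady state library 3 (adjusted p up to 0.14). Myb fell 1.93-fold (edgeR adjusted p = 0.024), a call lost without any 1 IL-33 library or steady state library 1 or 2 (adjusted p up to 0.104).

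Neutrophil markers fell, 10 of 16 with 0 higher and a list median of -4.43, although cells with Ly6G had been removed from both groups. Ltf (chromosome 9, 111019271 to 111042767), the lactoferrin gene of secondary granules, had 82.4, 27.8 and 37.8 CPM in IL-33 stage III, against 6266, 2512 and 4605 CPM in steady state stage II (log2 fold change -6.50, SE 1.31, edgeR adjusted p = 0.00258). Camp, the cathelicidin gene, had 34.0, 5.50 and 4.73 CPM in IL-33 stage III, against 2608, 2174 and 2150 CPM in steady state stage II (log2 fold change -7.30, SE 1.21, edgeR adjusted p = 0.000429). S100a8 had 70.7, 22.1 and 12.8 CPM in IL-33 stage III, against 2016, 1689 and 1585 CPM in steady state stage II (log2 fold change -5.65, SE 0.88, edgeR adjusted p = 0.00022). Its partner S100a9 had 334, 207 and 232 CPM in IL-33 stage III, against 2839, 2290 and 2040 CPM in steady state stage II (log2 fold change -3.21, SE 0.69, edgeR adjusted p = 0.00429). Lcn2, the lipocalin gene, had 28.7, 7.44 and 4.25 CPM in IL-33 stage III, against 2375, 1092 and 917 CPM in steady state stage II (log2 fold change -6.77, SE 1.32, edgeR adjusted p = 0.00195). The first IL-33 library was the highest of its group for all 5 genes, and still below every steady state library. Chil3 fell 54.3-fold. Others did not pass. Ngp had 2665, 2038 and 2778 CPM in IL-33 stage III, against 8836, 5776 and 9242 CPM in steady state stage II (log2 fold change -1.67, SE 0.58, edgeR adjusted p = 0.0768). Retnlg had 610.3, 319.7 and 449.5 CPM in IL-33 stage III, against 168, 369 and 641 CPM in steady state stage II (log2 fold change 0.23, SE 0.47, edgeR adjusted p = 0.825). Ly6g, the gene of the depleted marker itself, averaged 12.2 ± 4.57 CPM in IL-33 stage III and 30.2 ± 8.16 CPM in steady state stage II (SD, n = 3 each). Ltf, Ngp and S100a9 were thus abundant in steady state stage II, beside the eosinophil granule transcripts given above.

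**Figure D3:**
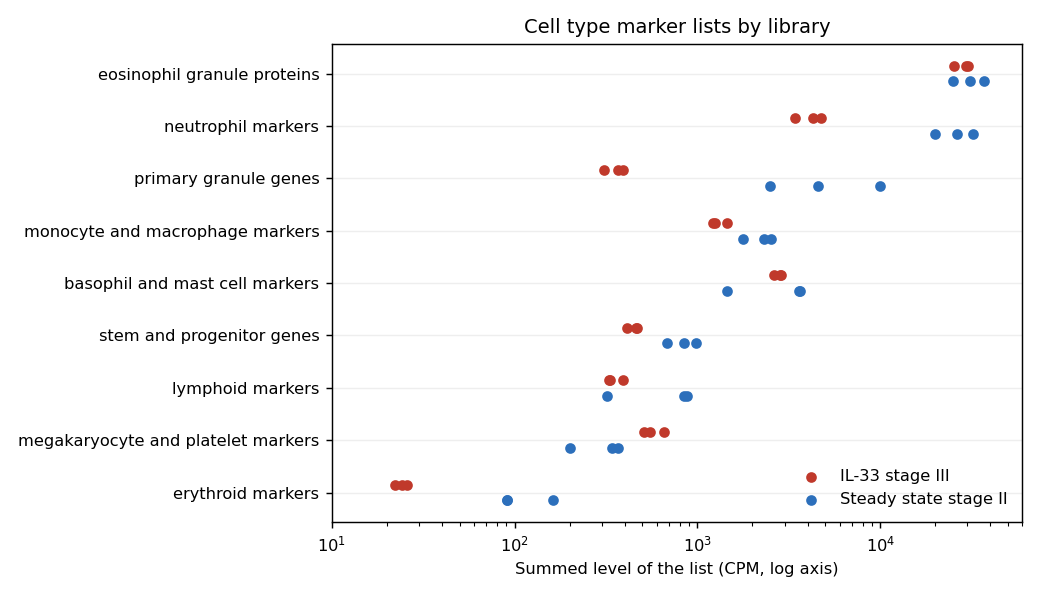
Summed level (CPM, log axis) of 9 marker lists in the 3 IL-33 stage III libraries (red, upper of each pair) and the 3 steady state stage II libraries (blue, lower). The eosinophil granule list overlapped at 25270 to 30350 CPM in IL-33 stage III and 25050 to 36860 CPM in steady state stage II, while the neutrophil list lay at 3409 to 4743 CPM and 19860 to 32190 CPM.

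Markers of monocytes and macrophages fell in 9 of 17 and rose in 0, with a median of -3.38. Their sum was 1221 to 1450 CPM in IL-33 stage III and 1772 to 2529 CPM in steady state stage II, without overlap. F13a1, the gene of a clotting factor subunit of monocytes, had 30.8, 44.6 and 38.4 CPM in IL-33 stage III, against 165, 414 and 644 CPM in steady state stage II (log2 fold change -3.43, SE 0.58, edgeR adjusted p = 0.000557). Ccr2, the chemokine receptor gene of inflammatory monocytes, had 33.7, 20.3 and 18.1 CPM in IL-33 stage III, against 71.4, 174 and 242 CPM in steady state stage II (log2 fold change -2.76, SE 0.56, edgeR adjusted p = 0.00287). Ms4a6c fell 10.4-fold, Ms4a4c 19.1-fold, the protease gene Ctss 11.2-fold and the fractalkine receptor gene Cx3cr1 109.9-fold. Csf1r, the receptor gene for macrophage colony-stimulating factor, had 85.0, 71.6 and 72.9 CPM in IL-33 stage III, against 82.8, 50.9 and 113 CPM in steady state stage II and overlapped. Ly6c2 had 1251, 1056 and 1049 CPM in IL-33 stage III and 1098, 1153 and 799.7 CPM in steady state stage II. These overlapped, and Ly6c2 made up most of the list sum in IL-33 stage III.

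Basophil and mast cell markers were mixed, 4 of 10 tested higher and 1 lower, and their sum overlapped at 2628 to 2860 CPM in IL-33 stage III and 1448 to 3658 CPM in steady state stage II. Ms4a2 (chromosome 19, 11615523 to 11623719), which encodes the beta chain of the IgE receptor and whose promoter is printed above, had 293, 333 and 319 CPM in IL-33 stage III, against 107, 104 and 32.9 CPM in steady state stage II (log2 fold change 1.95, SE 0.46, edgeR adjusted p = 0.0092). Itga2, an integrin gene of basophils, had 16.8, 10.3 and 12.7 CPM in IL-33 stage III, against 0, 0 and 1.23 CPM in steady state stage II (log2 fold change 4.88, SE 0.89, edgeR adjusted p = 0.00107). It was not called in the 6 libraries alone (adjusted p = 0.0734). Cma1, a chymase gene of mast cells, had 3.77, 6.37 and 4.33 CPM in IL-33 stage III and no counts in steady state stage II, at least 49.8-fold higher. Cpa3, the carboxypeptidase gene of mast cells and basophils, had 1037, 1058 and 1056 CPM in IL-33 stage III, against 504, 702 and 189 CPM in steady state stage II and did not pass (log2 fold change 1.18, SE 0.37, edgeR adjusted p = 0.0535). Mcpt8, the defining basophil protease gene, had 81.3, 98.7 and 111 CPM in IL-33 stage III, against 689, 667 and 244 CPM in steady state stage II (log2 fold change -2.46, SE 0.86, edgeR adjusted p = 0.079). Prss34, another basophil protease gene, had 8.56, 11.1 and 32.3 CPM in IL-33 stage III, against 1245, 1014 and 367 CPM in steady state stage II, a fall of 50.6-fold (log2 fold change -5.66, SE 1.32, edgeR adjusted p = 0.0087). It was not called without IL-33 library 1 or 2 (adjusted p up to 0.0572). Genes shared with basophils thus did not move one way. The mast cell tryptase and chymase genes Tpsb2, Tpsab1 and Mcpt4 had no counts in the 6 libraries.

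Markers of lymphoid, erythroid and megakaryocyte cells were called in 0 of 8, 2 of 8 and 1 of 5 genes tested. Of 8 tested lymphoid markers 0 passed by edgeR, 1 by DESeq2 and 1 by limma-voom, with sums of 329 to 391 CPM in IL-33 stage III and 320 to 875 CPM in steady state stage II, and Ncr1, Klrb1c and Gata3 had no counts. Most of that sum was Nkg7, a gene of cytotoxic granules also known from basophils, at 299.8, 362 and 302 CPM in IL-33 stage III and 836, 806 and 269.9 CPM in steady state stage II. Cells with CD45R, NK1.1 or CD90.2 had been removed from both groups before the sort, and the part of this in the lymphoid levels was not tested. The 4 globin genes Hbb-bs, Hbb-bt, Hba-a1 and Hba-a2 were at 0 in all 6 libraries. Of 8 tested erythroid markers 2 fell, and the sum was 22.1 to 25.6 CPM in IL-33 stage III and 90.8 to 161 CPM in steady state stage II. Car2, a carbonic anhydrase gene, had 11.9, 10.4 and 11.6 CPM in IL-33 stage III, against 48.0, 37.6 and 110 CPM in steady state stage II (log2 fold change -2.53, SE 0.67, edgeR adjusted p = 0.0197). It lost its call without any 1 IL-33 library or steady state library 3 (adjusted p up to 0.095). Of 5 tested megakaryocyte and platelet markers Itga2b, the integrin gene of megakaryocytes and of early progenitors, rose 1.92-fold (edgeR adjusted p = 0.0309). It had 505, 548 and 652 CPM in IL-33 stage III, against 367, 331 and 191 CPM in steady state stage II, which made up most of a list sum of 512 to 655 CPM in IL-33 stage III and 199.7 to 369 CPM in steady state stage II. The call was lost with relative log expression factors, with library totals, in the 6 libraries alone, with limma-voom and without the 4 steady state libraries numbered 3, any 1 IL-33 library or steady state library 2 or 3 (adjusted p up to 0.138). Pf4, the platelet factor gene, averaged 1.504 ± 0.774 CPM in IL-33 stage III and 2.33 ± 2.13 CPM in steady state stage II (SD, n = 3 each).

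Of 29 tested interferon-stimulated genes 7 fell and 0 rose, with a median of -0.92. Ifitm1, an interferon-induced gene that is not in this list, rose, as given above. Xaf1 had 0.343, 0.603 and 0.562 CPM in IL-33 stage III, against 2.32, 8.44 and 8.81 CPM in steady state stage II (log2 fold change -3.66, SE 0.63, edgeR adjusted p = 0.000685), and Rtp4, which encodes a receptor transporter protein, fell 11.0-fold (log2 fold change -3.46, SE 0.63, edgeR adjusted p = 0.00107). Of 20 antigen presentation genes 4 fell and 1 rose. The one that rose was H2-T23, a class I gene, which had 315, 297 and 246 CPM in IL-33 stage III, against 155, 176 and 72.6 CPM in steady state stage II (edgeR adjusted p = 0.0467), though reads may be split between class I genes. Its call was lost with relative log expression factors, with library totals, with a filter of 5 CPM in 3 libraries, in the 6 libraries alone and without any 1 IL-33 library or steady state library 1 or 3 (adjusted p up to 0.172). H2-DMa (chromosome 17, 34119541 to 34139101), which loads peptides on class II molecules, had 6.00, 7.44 and 4.65 CPM in IL-33 stage III, against 32.1, 56.0 and 57.7 CPM in steady state stage II (log2 fold change -3.01, SE 0.36, edgeR adjusted p = 1.41e-05). H2-Aa, a class II alpha chain gene, had 1.71, 2.21 and 0.802 CPM in IL-33 stage III, against 17.7, 29.8 and 60.2 CPM in steady state stage II (log2 fold change -4.50, SE 0.82, edgeR adjusted p = 0.00114). The invariant chain gene Cd74 had 28.0, 20.2 and 10.4 CPM in IL-33 stage III, against 67.5, 124 and 274 CPM in steady state stage II (log2 fold change -2.99, SE 0.83, edgeR adjusted p = 0.0265). In Cd74 the third steady state library was the highest, and without it, or without any 1 IL-33 library, the call was lost (adjusted p up to 0.117). Monocyte and macrophage markers were lower in the same IL-33 libraries, as given above, and their part in these falls was not tested.

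Of 26 tested eosinophil surface receptors 2 rose and 4 fell. Tlr2, the receptor gene for bacterial lipoproteins, had 0.685, 1.21 and 3.77 CPM in IL-33 stage III, against 19.3, 22.2 and 205 CPM in steady state stage II (log2 fold change -5.44, SE 1.15, edgeR adjusted p = 0.00392), with the third steady state library far above the others. Clec4a2, a lectin receptor gene, had 52.7, 25.9 and 48.1 CPM in IL-33 stage III, against 214, 251 and 315 CPM in steady state stage II (log2 fold change -2.62, SE 0.40, edgeR adjusted p = 0.00021). Clec7a, the beta-glucan receptor gene, fell 6.37-fold (not called without IL-33 library 2 or steady state library 3, adjusted p up to 0.0758). Cybb, the gene of the catalytic subunit of the NADPH oxidase, had 772, 509 and 836 CPM in IL-33 stage III, against 1610, 1337 and 2281 CPM in steady state stage II (edgeR adjusted p = 0.024). Its call was lost without the 4 steady state libraries numbered 3, IL-33 library 1 or 2 or steady state library 3 (adjusted p up to 0.139). It was the 1 of 8 oxidase genes that passed. C3ar1, a receptor gene for a complement fragment, moved the other way, with 70.6, 67.1 and 64.8 CPM in IL-33 stage III, against 5.74, 0.102 and 0 CPM in steady state stage II (log2 fold change 5.17, SE 0.84, edgeR adjusted p = 0.00034). It was not called in the 6 libraries alone (adjusted p = 0.0507). Of 30 lysosome and autophagy genes 1 rose and 4 fell, among them the macrophage glycoprotein gene Cd68 at 4.02-fold (log2 fold change -2.01, SE 0.39, edgeR adjusted p = 0.00189). Neutrophil and monocyte markers fell in the same libraries, as given above, and their part in the falls of Tlr2, Clec4a2, Clec7a, Cybb and Cd68 was not tested.

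In the main fit, lists of growth and stress genes held calls at a share below the 8.36% of all genes tested. Of 27 ribosome biogenesis genes 0 passed, by DESeq2 and limma-voom as well, and their median was -0.00 on the log2 scale. The Myc and Max network had 0 of 10 called by all 3 tools. Of 30 subunits of oxidative phosphorylation 1 was called higher, of 28 genes of folding in the endoplasmic reticulum 1 higher and 1 lower, with medians of 0.24 and 0.53. Of 27 genes of the NF-kB pathway, which IL-33 is known to switch on through ST2, 1 rose and 1 fell. The log2 fold change was positive in 9 and negative in 18, with a median of -0.445, or 0.035 without steady state library 3. Nfkb1 rose with 260, 306 and 235 CPM in IL-33 stage III, against 133, 109.5 and 110 CPM in steady state stage II (log2 fold change 1.19, SE 0.22, edgeR adjusted p = 0.00142). Map3k8, a kinase gene of the pathway, fell 24.8-fold (log2 fold change -4.63, SE 1.09, edgeR adjusted p = 0.00917). Of 22 immediate early genes 1 was called, Atf3, with 4.20, 6.57 and 4.89 CPM in IL-33 stage III, against 23.2, 52.0 and 663 CPM in steady state stage II (edgeR adjusted p = 0.0311). The call was lost with limma-voom and without any 1 IL-33 library or steady state library 3 (adjusted p up to 0.232). The result for this list also moved with the libraries numbered 3. Its median was -0.179 in the main fit, with 0 higher and 1 lower. Without the 4 steady state libraries numbered 3 the median was 0.796, with 6 higher and 1 lower. Without steady state stage II library 3 alone it was 0.887, with 2 higher and 0 lower.

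Genes of the sort markers are given as a description, because the gates used their proteins. Cd200r3 had 69.7, 76.1 and 57.9 CPM in IL-33 stage III, against 14.6, 2.34 and 9.60 CPM in steady state stage II. Cd55 had 264, 285 and 222 CPM in IL-33 stage III, against 87.8, 75.3 and 102 CPM in steady state stage II. Both were higher in every IL-33 library. Kit, which encodes CD117, had 13.5, 6.57 and 19.4 CPM in IL-33 stage III, against 119, 134 and 118 CPM in steady state stage II. Siglecf had 376, 329.7 and 373 CPM in IL-33 stage III and 394, 314 and 150.3 CPM in steady state stage II. Itgb1 (CD29) had 154, 129.9 and 147 CPM in IL-33 stage III and 110.4, 126 and 201 CPM in steady state stage II, and Adgre1 (F4/80) 300.3, 321 and 359 CPM in IL-33 stage III and 223, 205 and 181 CPM in steady state stage II. Siglecf and Itgb1 overlapped between the groups, and Adgre1 was higher in each IL-33 library. Pirb, a gene with near-identical copies, had 297, 250 and 293 CPM in IL-33 stage III and 210.2, 162 and 343 CPM in steady state stage II.

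One way to split the difference between these groups takes 2 steps. The first goes from steady state to IL-33 within stage II, the second from stage II to stage III under IL-33. Both share the IL-33 stage II libraries. In the first step 1023 genes (8.03%) passed, 517 higher and 506 lower, and in the second 11 (0.0863%), all higher, with 684 at an unadjusted p under 0.05. The 11 were Ccl6, Timp2, Asb2, Lgals3, Retnlg, Ltb, Csf1r, Samhd1, Slpi, Capg and Ypel3. For Cyp11a1 the log2 fold changes were 4.25 and 0.22 in the first and second step, for Socs2 5.49 and 0.18 and for Nfkb1 1.17 and 0.02. In these genes nearly the whole difference stood in stage II already. For Gata2 they were 3.01 and 0.90 and for Il1rl1 1.28 and 0.44. Others lay mainly in the second step, with 0.47 and 1.27 for Itgb7 and -0.06 and 1.34 for Adam8, neither of which passed in that step (adjusted p = 0.173 and 0.0551). Both steps were negative for Mpo (-2.18 and -3.00), Elane (-4.77 and -2.75), Ltf (-4.16 and -2.34) and S100a8 (-3.14 and -2.51). The steps had opposite signs for Retnlg (-2.69 and 2.91) and Csf1r (-1.74 and 1.64), whose levels in IL-33 stage III and steady state stage II overlapped. The same difference is also the sum of the steady state step from stage II to stage III and the IL-33 step within stage III. In those steps 4405 and 4256 genes passed. For Ccl6 they were 3.49 and -0.97, against 1.06 and 1.47 in the steps above. The primary granule genes, among them Mpo and Elane, had medians of -4.195 in the steady state step and -0.529 in the IL-33 step within stage III. For the neutrophil markers, among them Ltf and S100a8, these medians were -0.284 and -3.919. How the difference divides thus depends on the path taken.

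**Figure D4:**
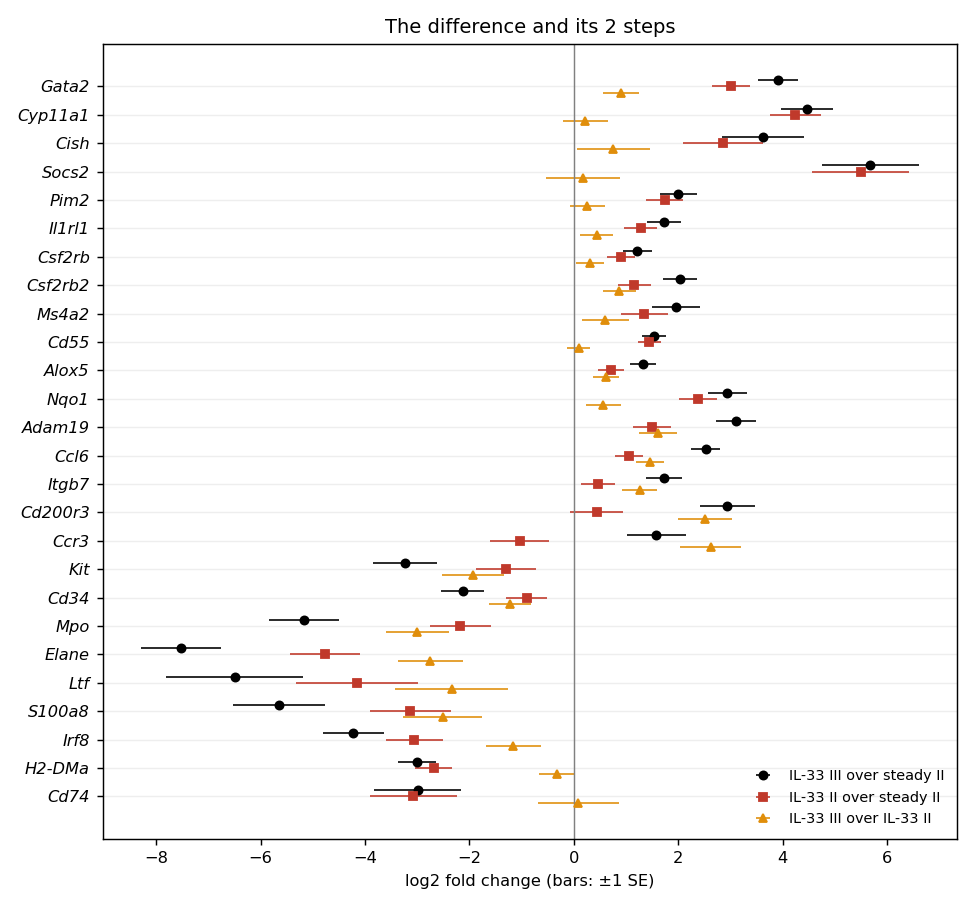
Log2 fold change with ±1 SE of 26 genes for IL-33 stage III over steady state stage II (black circles), IL-33 stage II over steady state stage II (red squares) and IL-33 stage III over IL-33 stage II (orange triangles). The black value is the sum of the other two, which share libraries with it, and Cd55, Cd200r3 and Kit are genes of sort markers, shown as a description. Cyp11a1 has 4.25 of its 4.47 in the red step, and Itgb7 has 1.27 of its 1.73 in the orange step.

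Levels over all 8 groups placed the pair in the course of maturation. Gata2 averaged 168, 377, 704 and 579 CPM in stages I to IV under IL-33 and 63.9, 46.7, 21.6 and 8.81 CPM in steady state. Cyp11a1 averaged 466, 443.6, 517 and 1072 CPM under IL-33 and 48.3, 23.4, 1.76 and 1.41 CPM in steady state. Both were thus higher under IL-33 than in steady state in each stage. Csf2rb2 averaged 89.7 CPM in IL-33 stage III, near the 102 CPM of steady state stage III and above the 21.99 CPM of steady state stage II. Alox5 stood at 1040 CPM in IL-33 stage III, 1048 CPM in steady state stage III and 415 CPM in steady state stage II. Ccr3, the eotaxin receptor gene of mature eosinophils, averaged 93.1 CPM in IL-33 stage III, 660.2 CPM in steady state stage III and 31.0 CPM in steady state stage II. The difference between IL-33 stage III and steady state stage II did not pass (log2 fold change 1.58, SE 0.57, edgeR adjusted p = 0.0864). Ccl6 lay between the steady state stages in the same way, with 2230, 4354 and 387 CPM in IL-33 stage III, steady state stage III and steady state stage II.

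**Figure D5:**
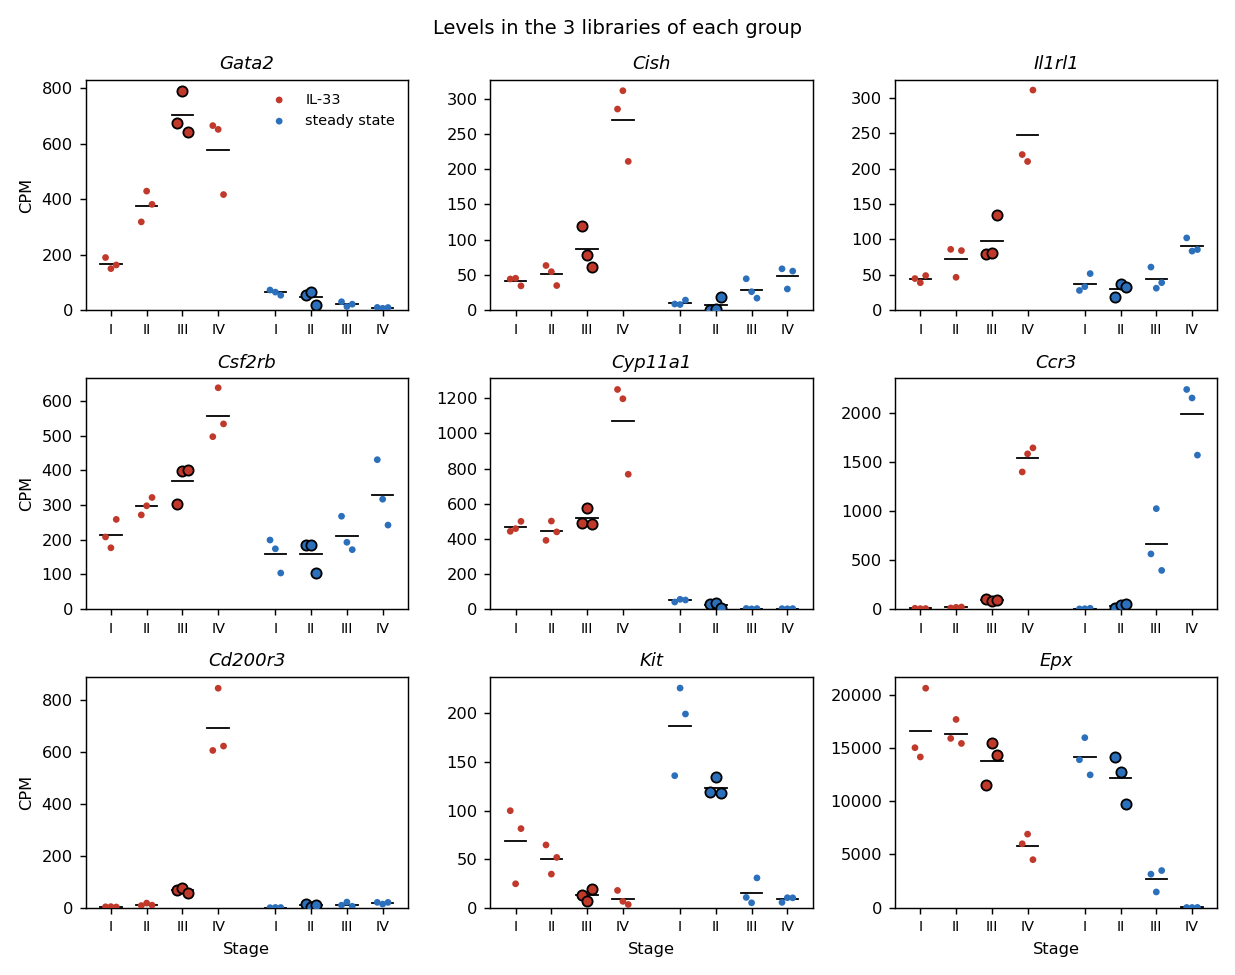
Level (CPM) of 9 genes in every library by stage, with IL-33 groups (red) left of steady state groups (blue), bars for group means, and the 6 libraries compared here outlined. Gata2 and Cyp11a1 are higher under IL-33 in every stage, Kit is at 6.57 to 19.4 CPM in IL-33 stage III and 118 to 134 CPM in steady state stage II, and Epx overlaps.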

How the data were processed

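For every library the authors deposited whole-number counts of reads per gene symbol (24982 symbols). Of the 6 libraries compared, reads with no feature (9.19% to 20.6%) and ambiguous reads (1.73% to 2.19%) stood in 2 entries that were dropped before library sizes and tests. The submitters' processing notes name STAR 2.6.1a, DESeq2 and mm10. Counting tool, strand setting and annotation: not given in the sources used here. Per the labels' protocols the kits were SMART-Seq v4 and Nextera XT. These keep no strand, and overlapping or antisense genes cannot be told apart. Positions are from GENCODE M21 (GRCm38), which placed 24490 symbols (98%).

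One edgeR 4.0.16 quasi-likelihood fit (R 4.3.3) of 8 groups over 24 libraries was made after its filter by group (12743 genes kept) and scaling by trimmed means, so that all groups share 1 estimate of the spread. Benjamini-Hochberg adjustment ran over all genes tested (threshold 0.05). The SE is the absolute log2 fold change divided by the square root of F. On simulated counts of this comparison (12464 genes) the test recovered 74% of genes changed by 2 on the log2 scale and 15% of those changed by 1, with 3 false calls. Changes were placed only in genes above a minimum mean level, and all other genes had equal means in all groups. No simulated library was made to stand apart. Recovery of genes with few counts, or with a library that stands apart, is thus not covered. Pairs of replicates had a chi-square of 21.3 to 116 per degree of freedom, so none was a copy of another.

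The groups compared, the 39 gene lists and the tests were chosen with earlier results of these data known. Genes were named by a rule: adjusted p under 0.05, no overlap between groups and at least 20 CPM in 1 group, with the 12 greatest rises and falls (predicted, Riken, small RNA, segment, pseudogene, Y-linked and cell cycle genes passed over), up to 4 called members per list, a panel of 23 genes, and the most abundant members of cell cycle and other cell type lists. Csf2rb, Csf2ra, Il3ra, Crlf2, Ms4a2, Cpa3, Pim1, Mcpt8, Ngp, S100a9, Lcn2, Ifitm1, Lmna, Selenom, Csf1r, Retnlg, Runx1, Gfi1, Il6ra, Tnfrsf1b, Clec7a, Cx3cr1, Il13ra1, Mvd, Slc16a3, Txnrd1, Flt3, H2-T23, Ccnd1, Cdkn2a, Ear1 and Ly6g were added after their values were seen, as were the genes called between the IL-33 stages. Alternatives were DESeq2 1.42.0, limma 3.58.1 (voom with sample weights), other scalings and filters, a replicate block, and fits with fewer libraries. Some genes chosen by either route are not reported here. Figures were drawn with matplotlib 3.10.9.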

Additional observations from a re-analysis of the deposited data

How the results depend on the processing

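Over the alternatives that kept all 3 libraries of both groups, the count of 1065 genes called lay between 781 and 1515, and without the 4 steady state libraries numbered 3 it was 1295. With 1 library left out it lay between 543 and 967, with 348 to 540 genes higher and 195 to 427 lower. The 6 libraries alone gave 333 genes higher, and DESeq2 gave 828 lower. The cause was not tested. Of the 146 named genes called, 91 kept their call under every alternative, 25 lost it in the 6 libraries alone, 17 lost it without the 4 steady state libraries numbered 3, and 0 changed sign.

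Replicate numbers were not taken to pair IL-33 stage III with steady state stage II, although the libraries numbered 3 stood apart together within steady state. Deviations of same-numbered libraries of these groups correlated at -0.01 to 0.13, and 3 of 6 libraries correlated best with their own number. With the replicate block 1242 genes were called, 749 higher and 493 lower.

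Some named genes that did not pass changed the sign of their log2 fold change. Without the 4 steady state libraries numbered 3 it was 2.78 for Cd79a, 0.11 for Csf1r, -0.051 for Epx, 0.19 for Itgb1, -0.096 for Ly6c2 and -0.064 for Siglecf. With limma-voom it was 1.77 for Cd79a, 0.086 for Csf1r, 0.14 for Itgb1 and 1.13 for Pf4. Il5ra stood at -0.046 with relative log expression factors and with DESeq2, and at -0.042 in the 6 libraries alone. Gp9 stood at 0.037 with the replicate block. With 1 library left out the values ranged from -0.998 to 2.87 for Cd79a, from -0.345 to 0.20 for Csf1r, from -0.825 to 0.98 for Gp9, from -0.24 to 0.297 for Il5ra, from -0.18 to 0.28 for Itgb1, from -1.01 to 0.055 for Jun, from -0.003 to 0.245 for Ly6c2, from -1.21 to 0.084 for Pf4 and from -0.13 to 0.781 for Retnlg. Depth limits genes with few counts, for which 3 counts over a group are 0.0768 CPM in IL-33 stage III and 0.0992 CPM in steady state stage II.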

Other observations

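Further gene lists held changes not described above. Of 16 tested genes of type 2 and alternative activation, 2 rose and 4 fell. Retnla, which encodes a resistin-like protein of type 2 inflammation, had 4.45, 9.72 and 3.61 CPM in IL-33 stage III, against 0.110, 0.712 and 0 CPM in steady state stage II (log2 fold change 4.43, SE 0.79, edgeR adjusted p = 0.000955), and was not called in the 6 libraries alone (adjusted p = 0.0885) or by limma-voom (adjusted p = 0.12). Fn1, the fibronectin gene, had 9.25, 5.09 and 8.51 CPM in IL-33 stage III, against 36.6, 129.9 and 203 CPM in steady state stage II (log2 fold change -4.02, SE 0.89, edgeR adjusted p = 0.00543). Chil3, which is also a neutrophil marker, had 74.9, 101 and 50.2 CPM in IL-33 stage III, against 5806, 2986 and 3485 CPM in steady state stage II, and it made up most of the list sum in steady state stage II, which was 3579 to 6476 CPM.

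Among the secreted proteases and inhibitors that fell, Serpinb10, a protease inhibitor gene, had 0.171, 0.402 and 0.161 CPM in IL-33 stage III, against 4.74, 13.7 and 24.1 CPM in steady state stage II (log2 fold change -5.77, SE 0.88, edgeR adjusted p = 0.000181). Of 19 chemoattractant and lipid receptors 2 rose and 3 fell. Cxcr2, the chemokine receptor gene of neutrophils, had 2.14, 0.603 and 0.241 CPM in IL-33 stage III, against 44.2, 7.53 and 6.69 CPM in steady state stage II (edgeR adjusted p = 0.0471), a call lost with library totals, in the 6 libraries alone and without any 1 IL-33 library or steady state library 1 (adjusted p up to 0.19). The nucleotide receptor gene P2ry2 had 48.0, 46.2 and 44.4 CPM in IL-33 stage III, against 24.5, 21.1 and 16.6 CPM in steady state stage II (edgeR adjusted p = 0.0256), a call lost with library totals, with limma-voom, without the 4 steady state libraries numbered 3 and without any 1 IL-33 library or steady state library 2 or 3 (adjusted p up to 0.0945).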
